A study of Homo sapiens with 6 samples.

Results

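The genes described here are 54 genes of DNA replication and mitosis, measured by RNA sequencing in K562 cells with and without knockout of the zinc-finger gene ZNF410. They were taken from a list of symbols that used no measured value as a rule but was drawn up with results of these data known, and all 54 were found among the 26485 symbols of the deposited count table. They comprise 13 replication genes, 7 G1/S genes (cyclins and E2F factors), 5 inhibitors of cyclin-dependent kinases (CDKs) and 29 mitotic genes. K562 is an established human myeloid leukaemia line with erythroid features, grown in serum-containing medium. The control group was a wild-type line that carried the guide RNA sgNeg2, and the 2 knockout groups were lines made with either of 2 guides against ZNF410, called sgRNA1 and sgRNA2 here. Each group had 2 libraries of total RNA, numbered 1 and 2, so that 4 knockout libraries stood against 2 controls. The labels do not say what the replicate number stands for or whether the lines were clones. No source used here says that the 2 libraries of a group came from separate cultures, so p-values measure only the spread between these libraries.

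A dividing cell licenses its origins in G1, when CDC6 and CDT1 load the MCM2-7 helicase onto DNA, and fires them in S phase once cyclin E with its kinase and the E2F factors have switched on the S-phase genes. In mitosis CDK1 with B-type cyclins, the Aurora and Polo-like kinases and the spindle motors build the spindle, and the kinetochore and its checkpoint hold chromosomes until the anaphase-promoting complex (APC/C) is released. CDK inhibitors of the CIP/KIP and INK4 families act against these kinases. Transcription of such genes is known to rise and fall through the cycle, with E2F sites in S-phase gene promoters and the cell cycle genes homology region (CHR), often beside CCAAT boxes, in those of mitotic genes. K562 cells are known to divide quickly and to lack the INK4 genes CDKN2A and CDKN2B.

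The libraries held between 8788816 and 9537470 whole-number gene counts, and between 17228254 and 18689560 expected counts in a second deposited table, which shares ambiguous reads among transcripts. Levels are given as counts scaled to library size (CPM) or, between genes, as FPKM, which also corrects for transcript length. ZNF410 was at 38.3 and 34.1 CPM in the 2 controls, 19.2 and 24.5 CPM under sgRNA1 and 16.9 and 20.6 CPM under sgRNA2, lower in all 4 knockout libraries (log2 fold change -0.83, SE 0.12, edgeR adjusted p = 0.0023). CHD4, a known ZNF410 target, was at 591 and 669 CPM in the controls and from 282 to 325 CPM in the knockout libraries (log2 fold change -1.04). The cells carried their defining erythroid transcripts, with GATA1 between 184 and 223 FPKM. Of 10 megakaryocyte markers PF4 was listed at 0 in all 6 libraries, although the list summed to 66.3 to 110.4 FPKM, and of 14 markers of other cell types ALB was, while EPCAM (63.7 to 76.0 FPKM) and KRT8 (117 to 212 FPKM) were not low.

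Promoter sequences are shown for the 3 genes with the largest rises and the 3 with the largest falls among members with a window that passed the test between replicate numbers, the contrast in which most members moved. They were taken from RefSeq windows (GRCh38.p14) and are the 250 bases before the annotated start site, or the most upstream site where there were several, 5′ to 3′ on the gene's own strand. RefSeq windows matched 43 of the 54 members, and only those could be shown. Capitals mark exact matches, on either strand, to the CHR (TTTGAA), the CCAAT box (CCAAT) and E2F sites (TTTGGCGC, TTTCCCGC or TTTCGCGC). MKI67, RRM2 and CDKN2C were higher in replicate 2, and CDT1, AURKB and PTTG1 were lower.
MKI67, chr10:128126424-128126673, minus strand: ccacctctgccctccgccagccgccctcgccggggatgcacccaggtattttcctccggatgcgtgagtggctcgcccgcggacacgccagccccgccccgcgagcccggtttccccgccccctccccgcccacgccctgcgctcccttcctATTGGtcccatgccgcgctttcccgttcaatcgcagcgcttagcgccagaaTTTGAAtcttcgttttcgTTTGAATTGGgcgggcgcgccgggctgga
RRM2, chr2:10122318-10122567, plus strand: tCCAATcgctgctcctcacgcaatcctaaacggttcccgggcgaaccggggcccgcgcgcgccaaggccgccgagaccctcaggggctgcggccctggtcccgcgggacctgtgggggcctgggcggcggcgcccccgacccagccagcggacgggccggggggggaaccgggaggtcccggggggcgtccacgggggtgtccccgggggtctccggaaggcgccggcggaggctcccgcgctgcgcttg
CDKN2C, chr1:50960495-50960744, plus strand: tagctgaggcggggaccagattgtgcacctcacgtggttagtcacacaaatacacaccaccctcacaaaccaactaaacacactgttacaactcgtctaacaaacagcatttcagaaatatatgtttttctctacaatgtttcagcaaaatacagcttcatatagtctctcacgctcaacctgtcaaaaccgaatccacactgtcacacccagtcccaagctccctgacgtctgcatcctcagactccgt
CDT1, chr16:88803539-88803788, plus strand: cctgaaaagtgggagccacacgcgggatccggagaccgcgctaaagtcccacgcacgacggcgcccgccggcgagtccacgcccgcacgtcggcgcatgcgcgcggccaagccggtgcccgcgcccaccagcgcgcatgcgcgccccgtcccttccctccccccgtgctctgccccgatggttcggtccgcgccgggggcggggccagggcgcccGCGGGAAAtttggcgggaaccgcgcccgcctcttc
AURKB, chr17:8210250-8210499, minus strand: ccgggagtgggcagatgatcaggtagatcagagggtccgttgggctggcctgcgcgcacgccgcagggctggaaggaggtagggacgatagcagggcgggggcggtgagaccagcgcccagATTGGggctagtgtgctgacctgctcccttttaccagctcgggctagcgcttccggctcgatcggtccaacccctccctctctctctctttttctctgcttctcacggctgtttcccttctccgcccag
PTTG1, chr5:160421605-160421854, plus strand: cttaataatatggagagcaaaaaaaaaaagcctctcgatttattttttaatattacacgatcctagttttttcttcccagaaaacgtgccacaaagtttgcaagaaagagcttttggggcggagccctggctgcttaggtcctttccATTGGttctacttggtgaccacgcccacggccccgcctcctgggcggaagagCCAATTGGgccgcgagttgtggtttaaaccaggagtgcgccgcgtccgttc

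The MKI67 window held 2 CHR matches and 2 CCAAT boxes, 1 of which overlapped a CHR, whereas the other 5 windows held no CHR. CDT1 alone among these 6 held an E2F match. A match is a stretch of letters and not a measured site. Counted by group over the members with a window, the CHR stood in 12 of 24 mitotic and in 1 of 11 replication windows, against 13.6% of 27305 genes with a window. E2F letters stood in 7 of 11 replication windows (CDT1, GINS2, MCM3, MCM6, MCM7, PCNA and TYMS) and in 2 of 24 mitotic ones (CENPA and NUSAP1), against 2.36% of all. CCAAT boxes stood in 20 of 24 mitotic and 8 of 11 replication windows, against 33.0% of all. By direction between replicate numbers, the CHR stood in 4 of 10 windows of members that fell and 1 of 9 that rose, and E2F letters in 2 of 10 and 4 of 9. No test was made of these shares.

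The members were abundant transcripts, and 45 of 54 had a mean of at least 10 FPKM. Replication genes had the highest median (105 FPKM), led by TYMS, the thymidylate synthase (307 FPKM), and MCM7, a subunit of the replicative helicase (290.2 FPKM). Mitotic genes had a median of 55.9 FPKM and were led by PTTG1, the securin that holds back sister chromatid separation (192 FPKM), CCNB1, the mitotic cyclin B1 (169.6 FPKM), and CDK1, its kinase (152 FPKM). TOP2A, the topoisomerase that untangles chromosomes, averaged 146 FPKM. TPX2, which activates Aurora A on the spindle, averaged 124 FPKM.

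The G1/S genes ran from CCND3, cyclin D3, at 128 FPKM down to CCND2, cyclin D2, at 4.54 FPKM. The E2F factors lay between 7.26 and 11.9 FPKM. CDK inhibitors had the lowest median, 5.44 FPKM. Among the inhibitors, CDKN2C (p18) at 33.0 FPKM and CDKN1B (p27) at 24.1 FPKM were clearly expressed, and CDKN1A (p21) was nearly silent at 0.737 FPKM.

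CDKN2A and CDKN2B, which are not members, had no count in any library, which in the smallest library allows up to 0.341 CPM (3 counts, counting error only).

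**Figure D1:**
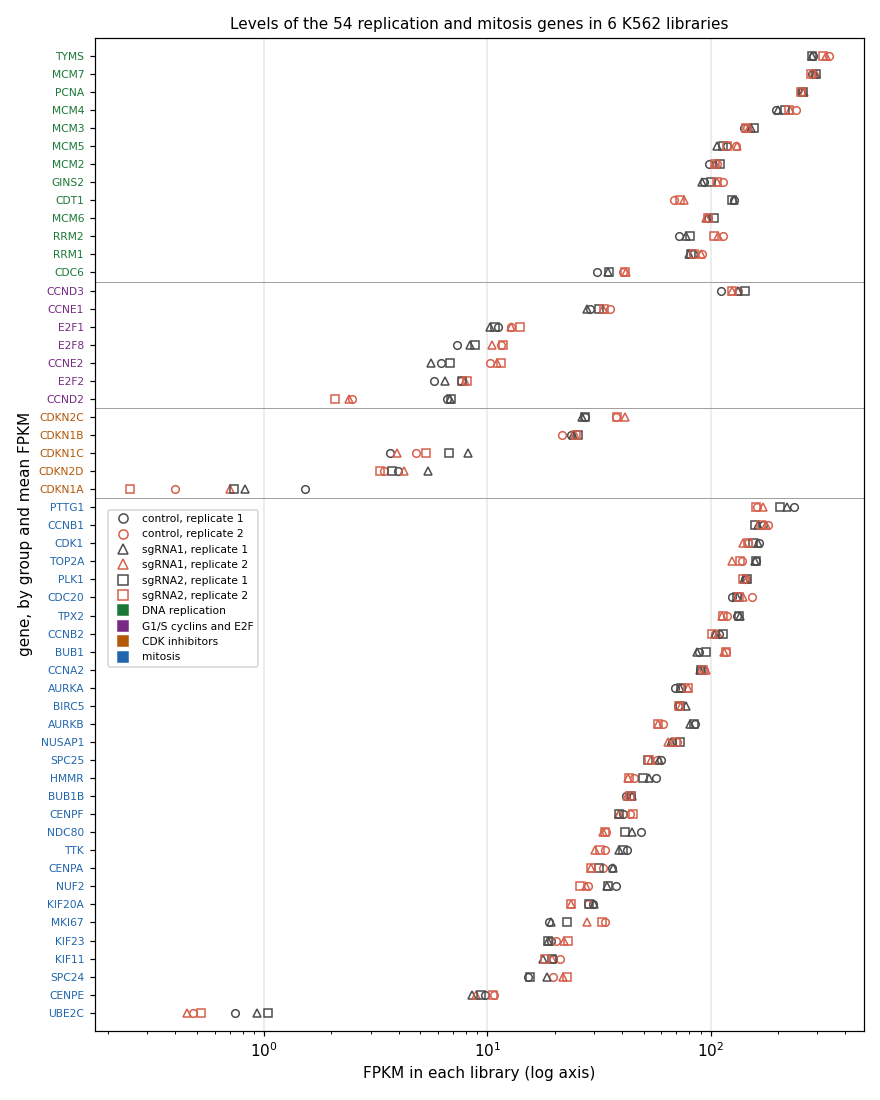
Level of each of the 54 genes in each of the 6 libraries, in FPKM on a log axis, with genes grouped and ordered by mean level. Points show single libraries, shaped by guide and coloured by replicate number; the 2 colours separate for CDT1, CCND2, RRM2 and MKI67, whereas the 3 shapes lie together.

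The 2 deposited tables gave the same picture for most members, but not for 3. Over all tested genes the median ratio of whole-number to expected counts was 0.553, and a gene was taken as discordant outside 0.277 to 1.11. SPC25, a kinetochore subunit, had a ratio of 0.146. UBE2C, the ubiquitin carrier of the APC/C, had 1.357, and CDKN1C (p57) had 0.0458. SPC24, the partner of SPC25, lay just inside at 0.297.

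UBE2C had only 5 and 10 whole-number counts in the controls, 16 and 6 under sgRNA1 and 15 and 5 under sgRNA2. Its expected counts were 7 and 5, 9 and 5, and 11 and 5 (0.693 FPKM), and its level is therefore uncertain. CDKN1C had 1 to 10 whole-number counts and was not tested there. Its expected counts were 89 and 122 in the controls, 193 and 93 under sgRNA1, and 167 and 122 under sgRNA2. These groups overlapped, and the knockout difference was +0.37 (SE 0.23, adjusted p = 0.48, edgeR).

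The first question was whether loss of ZNF410 changed the cell cycle genes. It did not change them in a way that both tables showed: 1 of 53 members tested in the whole-number counts passed the threshold, where 1.84% of all 12282 genes did, and none of 53 did in the expected counts, where 3.03% of genes did (1.39% for sgRNA1 alone and 2.26% for sgRNA2 alone, again with no member). The threshold was a Benjamini-Hochberg adjusted p under 0.05 in edgeR's quasi-likelihood test, blocked on replicate number. The knockout effect was within 0.2 on the log2 scale for 50 of 53 members, and the 95% interval lay inside 1.5-fold in both directions for 49, the exceptions being CDKN1A, CDKN2D, UBE2C and SPC25. These narrow intervals depended on the replicate block. Without it they reached from -0.70 to 0.83 among replication genes and from -1.39 to 1.67 among G1/S genes. The members' median was -0.0042, beside 0.0045 for all genes. Where a gene changed in such bulk RNA, fewer cells in a cycle phase and less RNA per cell could not have been told apart.

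**Figure D2:**
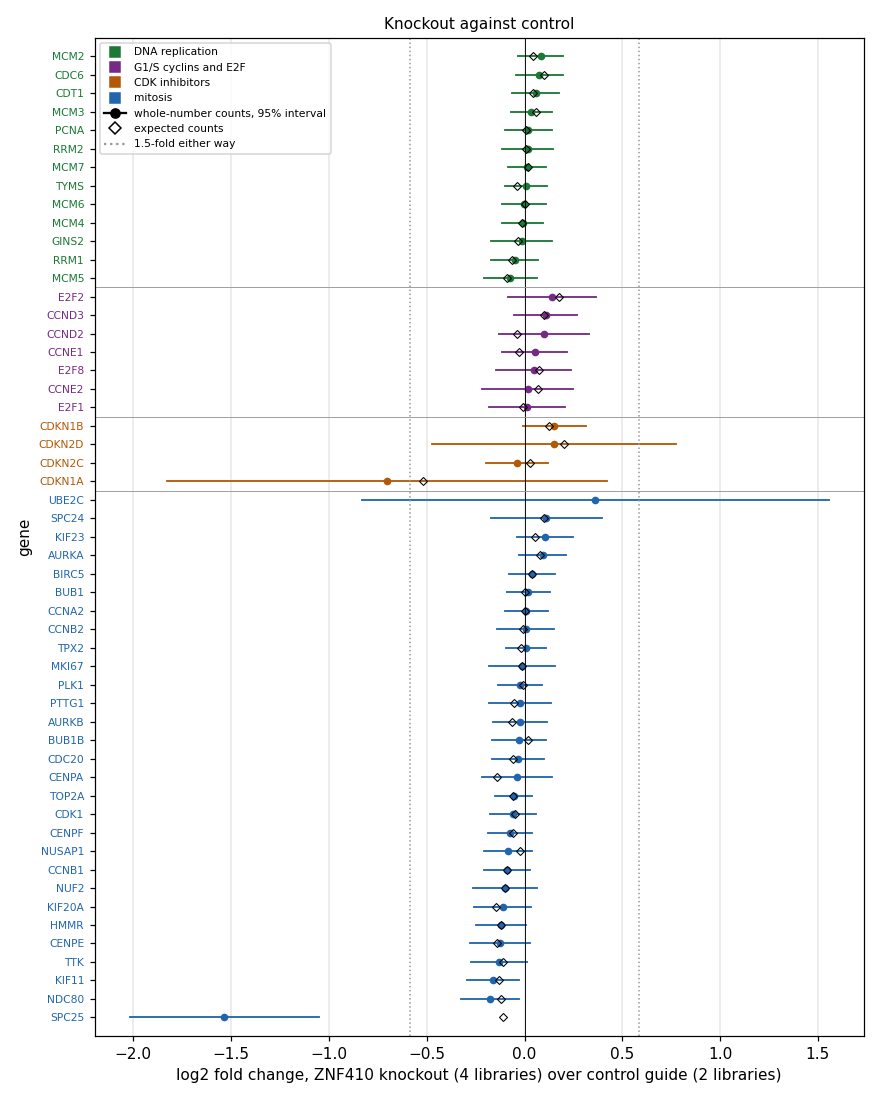
Log2 fold change of 53 genes, 4 ZNF410 knockout libraries over 2 control libraries, from whole-number counts with 95% intervals and, as diamonds, from expected counts. Intervals crowd around 0 within the dotted 1.5-fold lines; SPC25 stands at -1.54 in one table and -0.11 in the other.

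The gene called was SPC25, on chromosome 2 (GRCh38.p14, 168861521 to 168890430), one of the 4 subunits of the NDC80 complex, which ties kinetochores to microtubules. Whole-number counts were 161 and 397 in the controls, 72 and 117 under sgRNA1, and 111 and 72 under sgRNA2. The 4 knockout values were lower than either control, and control replicate 2 stood far above control replicate 1. The fold changes were -1.54 for the knockout (SE 0.23, adjusted p = 0.0019), -1.55 for sgRNA1 (adjusted p = 0.013) and -1.52 for sgRNA2 (adjusted p = 0.012), where 0.887% and 1.38% of genes passed for these guides.

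In the expected counts SPC25 had 1080 and 1120 counts in the controls, 1115 and 1065 under sgRNA1, and 1018 and 977 under sgRNA2. There the groups overlapped, the knockout effect was -0.11 (95% interval -0.25 to 0.03, adjusted p = 0.46), and levels were 52.2 to 59.95 FPKM in all 6 libraries. Because the tables disagree, the expected counts are the ones used for this gene. The whole-number call also ended without the replicate block (adjusted p = 1.00), in DESeq2 (adjusted p = 0.053) and without control replicate 2 (-0.90, adjusted p = 0.081), and over all alternatives its adjusted p ran from 2.1e-05 to 1.00.

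Its 3 partners in the NDC80 complex did not pass the test. NDC80 was at 94.6 and 66.6 CPM in the control pair, 84.2 and 59.8 under sgRNA1 and 76.0 and 61.9 under sgRNA2. It was below the control of the same number in every pair, but the effect of -0.18 did not survive adjustment (95% interval -0.33 to -0.03, adjusted p = 0.26). NUF2 had an effect of -0.10 and SPC24 one of +0.11.

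**Figure D3:**
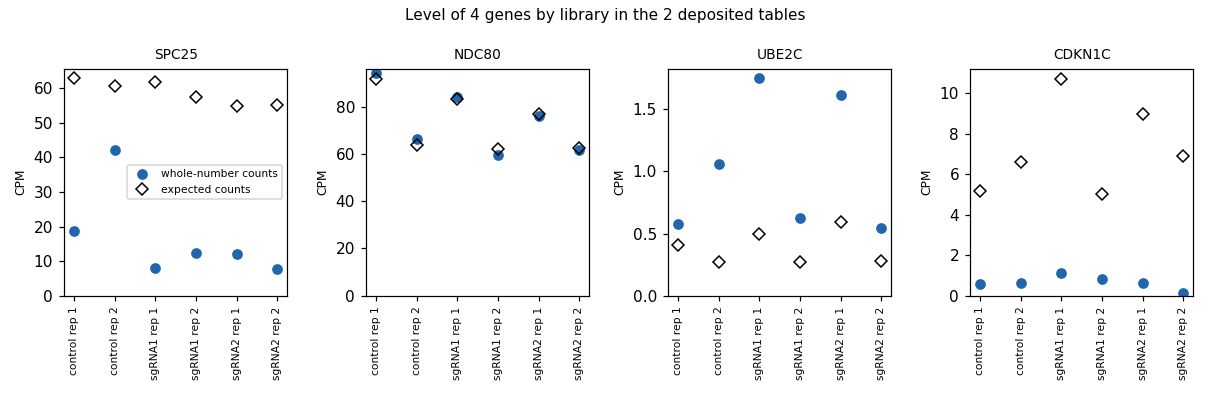
CPM of 4 genes in each library from the whole-number counts (filled circles) and the expected counts (open diamonds), each axis starting at 0. The tables coincide for NDC80, and for SPC25 they part, with expected CPM between 54.8 and 62.9 and count CPM between 7.80 and 42.1.

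None of the 13 replication genes passed in the knockout in either table. In whole-number counts their effects spanned -0.07 (MCM5) to +0.08 (MCM2), with intervals between -0.21 and 0.20, and in expected counts -0.09 to +0.10, with intervals between -0.21 and 0.21. MCM7 was at 812 and 803 CPM in the controls, 818 and 819 under sgRNA1 and 822 and 775 under sgRNA2 (knockout effect +0.01, 95% interval -0.08 to 0.11). TYMS had an effect of +0.01 (95% interval -0.10 to 0.11), and its groups overlapped.

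None of the 7 G1/S genes passed, and the effects ran from +0.01 for E2F1 to +0.14 for E2F2. In whole-number counts all 7 were positive, as for sgRNA2 alone, against 5 of 7 for sgRNA1 alone, and in expected counts 4 of 7 were. CCND3 was at 228 and 263 CPM in the controls, 269 and 256 under sgRNA1 and 291 and 239 under sgRNA2. The groups overlapped, with an effect of +0.11 (adjusted p = 0.61).

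None of the 4 inhibitors tested passed. CDKN1B was at 54.9 and 48.6 CPM in the controls, 57.3 and 58.8 under sgRNA1 and 58.9 and 53.3 under sgRNA2, so each knockout library was above the control of its number. Its effect of +0.15 had an interval of -0.01 to 0.31 (adjusted p = 0.42). CDKN2C overlapped between groups, with an effect of -0.04 (adjusted p = 0.88).

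The weak inhibitors were measured with less precision. CDKN1A was at 3.24 and 0.636 CPM in the controls, 1.43 and 1.47 under sgRNA1 and 1.08 and 0.325 under sgRNA2, and its interval ran from -1.83 to 0.42. CDKN2D (p19) was at 3.81 and 3.92 CPM in the controls, 5.15 and 4.92 under sgRNA1 and 4.52 and 2.60 under sgRNA2, with an interval of -0.47 to 0.77. A 1.5-fold fall (0.585 on the log2 scale) thus lay inside the interval of CDKN1A, and a 1.5-fold rise inside that of CDKN2D.

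Apart from SPC25, none of the 29 mitotic genes passed. Their median was -0.033, and 10 of 29 had all 4 knockout libraries below the control of the same number, while 3 had all 4 above, beside 1834 genes below and 1992 above of the 12282 tested. Of all genes 31.2% had their 4 knockout libraries on one side, as had 13 of 29 mitotic genes (44.8%) and 16 of 53 members (30.2%). The 4 placements of a gene rest on 2 control libraries, and no difference between these shares was tested. The lower 10 included CCNB1 (332 and 339.5 CPM in the controls, 316 and 334 under sgRNA1, 291 and 313 under sgRNA2, effect -0.09, adjusted p = 0.54) and KIF11, the motor that separates spindle poles (effect -0.16, adjusted p = 0.26). Of the 53 members, NDC80, KIF11 and SPC25 had intervals that left out 0.

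The 2 guides were compared with each other as well. None of 53 members passed between sgRNA2 and sgRNA1, where 0.0896% of all genes did. In edgeR 2 had an unadjusted p under 0.05, MKI67 (+0.24, adjusted p = 0.94) and PTTG1 (-0.17, adjusted p = 1.00). DESeq2 and limma also called none. MKI67 was called when either control library was left out, and when the 4 knockout libraries were fitted alone.

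The knockout effect did not differ between replicate numbers for any member either. None of 53 passed, where 0.244% of all genes did, and 4 had an unadjusted p under 0.05, namely CCND3 (-0.38, adjusted p = 0.26), SPC25, UBE2C and RRM2. DESeq2 and limma called none.

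Longer lists of cell cycle genes outside the 54 gave few calls in the knockout, as did all genes. Of all genes tested 1.84% passed in whole-number counts and 3.03% in expected counts. Of 48 other replication genes and 28 other cell cycle control genes tested, none passed in either table. Of 89 other mitotic genes 1 passed, PBK, a mitotic kinase, which was higher (+0.43, SE 0.08, adjusted p = 0.0087; +0.46, adjusted p = 0.0019 in the expected counts). Both guides called it, with +0.51 for sgRNA1 (adjusted p = 0.0056) and +0.35 for sgRNA2 (adjusted p = 0.046), each against the same controls. KIF15, a spindle motor, missed the threshold in one table and passed in the other (-0.27, adjusted p = 0.052 and 0.029); it was singled out after its values were seen.

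The second question was how the genes differed between libraries numbered 1 and 2, compared within each guide. Here 25 of 53 members passed, close to the 45.0% of all 12282 genes, so the number of changed members is no property of these genes. What can be described is which members moved: 12 rose and 13 fell in replicate 2, where 21.6% and 23.5% of all genes did. Of 13 replication genes 5 rose and 1 fell, of 7 G1/S genes 4 rose and 1 fell, and of 29 mitotic genes 2 rose and 11 fell. Counted without regard to the test, the signs were more even, with 7 positive and 6 negative among replication genes, 5 and 2 among G1/S genes and 12 and 17 among mitotic genes, and no difference between these groups was tested.

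All 25 moved in the same direction in the 3 guides, as did 98.9% of all genes called. The same 25 were called in the expected counts in the same direction, where 30 of 53 members and 52.6% of all genes passed. The 5 more were CCNE1, KIF23, MCM4 and SPC24, which were higher, and CDKN1A, which was lower. The replicate 1 and 2 libraries did not overlap for 28 of 53 members, beside 52.1% of all genes.

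**Figure D4:**
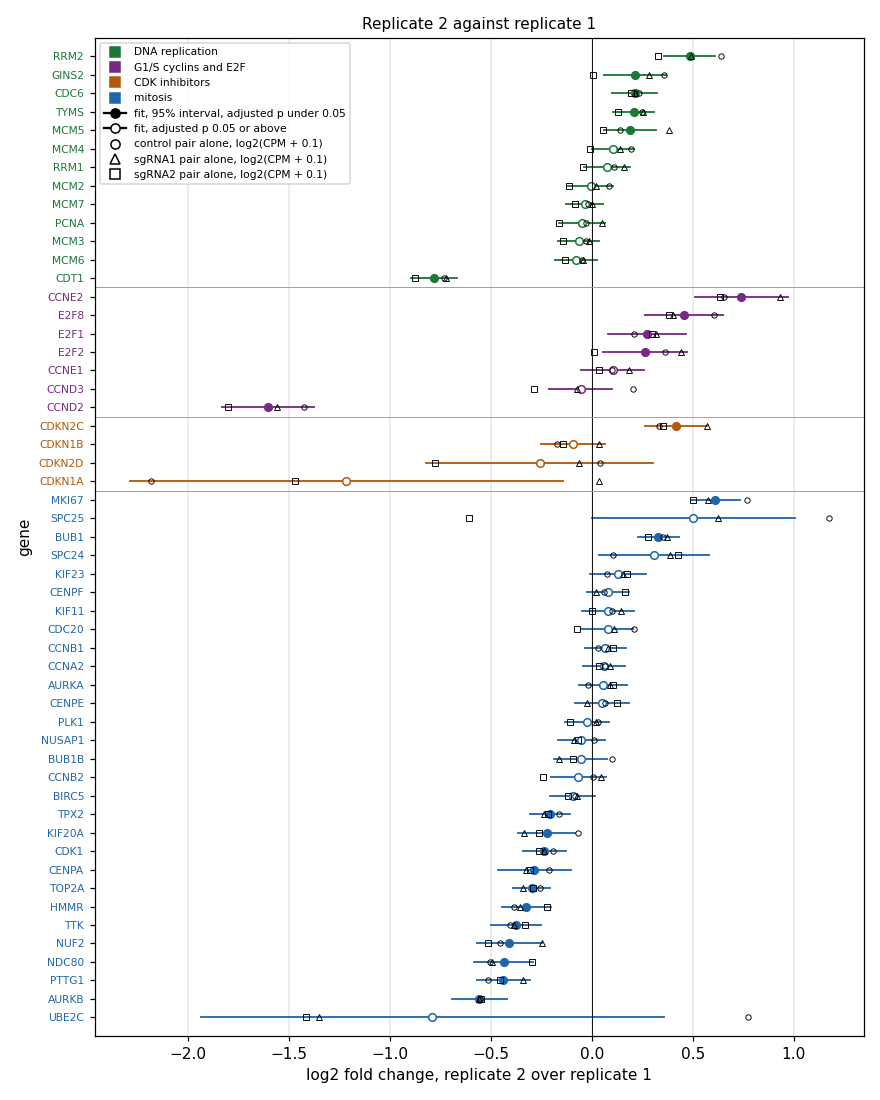
Log2 fold change of 53 genes, replicate 2 over replicate 1, with 95% intervals (filled where the adjusted p was under 0.05) and, in black, the change within each guide's pair alone. CCND2 and CDT1 lie far to the left, and most mitotic genes called lie left of 0, with MKI67 and BUB1 on the right.

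Licensing genes split. CDT1, which loads the helicase and is destroyed in S phase, was at 296, 310.4 and 314 CPM in the replicate 1 libraries of control, sgRNA1 and sgRNA2 and at 178, 188 and 171 CPM in the replicate 2 libraries. All 3 values of replicate 2 were well below the lowest of replicate 1, and the log2 change was -0.78 (SE 0.05, adjusted p = 5.6e-08). CDC6, its partner in loading, went the other way, from 155 ± 5.50 to 179 ± 5.38 CPM (SD, n = 3 each; +0.21, adjusted p = 0.0043).

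GINS2, a subunit of the active helicase, was at 82.1, 82.5 and 92.0 CPM in replicate 1 and 105, 100.5 and 92.5 CPM in replicate 2. The groups only just failed to overlap (+0.21, SE 0.07, adjusted p = 0.024), and the call ended without either control library and without either sgRNA1 library (+0.14 to +0.19) and in DESeq2 (adjusted p = 0.116). Of the MCM2-7 helicase, MCM5 was called (+0.19, adjusted p = 0.019) and the other 5 subunits were not, among them MCM7 at -0.04 (adjusted p = 0.53).

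Of the 4 genes of the clamp and nucleotide supply, 2 rose and none fell. RRM2, the S-phase subunit of ribonucleotide reductase, was at 225, 238 and 255 CPM in replicate 1 and 352, 334 and 319.9 CPM in replicate 2. The sets were apart in each guide, with +0.48 (SE 0.06, adjusted p = 1.5e-05), while its constant partner RRM1 did not pass (+0.07, adjusted p = 0.28). TYMS was at 373, 377 and 385 CPM against 444, 448 and 421 CPM (+0.21, SE 0.05, adjusted p = 0.0029). PCNA, the sliding clamp, did not pass (-0.05, adjusted p = 0.48).

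The G1/S cyclins held the largest moves in both directions. CCND2 was at 41.4, 47.0 and 47.5 CPM in replicate 1 and 15.4, 15.9 and 13.6 CPM in replicate 2, a mean 3.03-fold lower (log2 change -1.60, SE 0.11, adjusted p = 4.9e-08). CCNE2, cyclin E2, which drives entry into S phase, was at 6.2, 5.61 and 6.82 FPKM against 10.24, 10.98 and 11.52 FPKM, 1.67-fold higher in mean CPM (+0.74, SE 0.11, adjusted p = 7e-05). CCND3 did not pass (-0.05, adjusted p = 0.56), though it was called without either control library (-0.18, adjusted p = 0.0052 and 0.0056). The difference between these D-type cyclins was not tested.

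All 3 E2F members rose. E2F8, a repressive E2F that is itself an E2F target, was at 28.6, 31.6 and 32.0 CPM in replicate 1 and 43.4, 41.8 and 41.6 CPM in replicate 2 (+0.46, SE 0.09, adjusted p = 0.00087). E2F1, an activator, was at 30.4, 29.5 and 29.3 CPM against 35.2, 36.8 and 36.0 CPM (+0.27, SE 0.09, adjusted p = 0.024). The 6 E2F1 libraries did not overlap, but the call ended without any 1 of the 4 knockout libraries (adjusted p from 0.085 to 0.148) and in DESeq2 (adjusted p = 0.183). E2F2 rose by +0.26 (adjusted p = 0.038), but its replicate 1 and replicate 2 libraries overlapped.

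Among inhibitors CDKN2C, which blocks CDK4 and CDK6, was at 57.0, 51.4 and 53.5 CPM in replicate 1 and 71.9, 76.4 and 68.4 CPM in replicate 2. The sets were apart and the change was +0.42 (SE 0.07, adjusted p = 0.00033). CDKN1B (-0.09, adjusted p = 0.32) and CDKN2D (-0.26, adjusted p = 0.45) did not pass. CDKN1A missed the threshold in whole-number counts (-1.22, SE 0.50, adjusted p = 0.061) and passed in expected counts (-1.17, adjusted p = 0.016).

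Of the mitotic cyclins and kinases AURKB and CDK1 fell and 5 did not pass. AURKB, the kinase of the chromosomal passenger complex, was at 86.7, 83.7 and 85.8 CPM in replicate 1 and 59.0, 56.7 and 58.5 CPM in replicate 2. The drop was nearly the same in each guide (-0.56, SE 0.06, adjusted p = 8.1e-06). BIRC5 (survivin), in the same complex, did not pass (-0.10, adjusted p = 0.15).

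CDK1 was at 279, 279.9 and 263 CPM against 244, 237 and 219 CPM (-0.23, SE 0.05, adjusted p = 0.0014), a call that ended in limma with no FPKM filter (-0.16, adjusted p = 0.054). Its partners CCNB1 (+0.07, adjusted p = 0.27) and CCNB2 (-0.07, adjusted p = 0.42) did not pass, nor did CCNA2, PLK1 or AURKA.

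In the spindle checkpoint and APC/C group, PTTG1 was at 115, 112 and 103 CPM in replicate 1 and 80.3, 88.6 and 75.3 CPM in replicate 2 (-0.44, SE 0.06, adjusted p = 5.3e-05). TTK, a checkpoint kinase also known as MPS1, was at 122, 105 and 113 CPM against 92.3, 80.5 and 89.9 CPM (-0.38, SE 0.06, adjusted p = 0.00012). BUB1, another checkpoint kinase, rose from 316 ± 13.0 to 398 ± 2.96 CPM (SD, n = 3 each; +0.33, adjusted p = 7.2e-05). So 2 checkpoint kinases moved in opposite directions, while BUB1B and CDC20 did not pass.

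The kinetochore also split. NDC80 was at 94.6, 84.2 and 76.0 CPM in replicate 1 and 66.6, 59.8 and 61.9 CPM in replicate 2 (-0.44, SE 0.07, adjusted p = 0.00013). NUF2, with which it pairs, was at 70.7, 63.0 and 64.8 CPM against 51.6, 53.1 and 45.3 CPM (-0.41, SE 0.07, adjusted p = 0.00052). SPC24 rose instead in the expected counts (+0.24, adjusted p = 0.014; whole-number counts +0.31, adjusted p = 0.063), and SPC25 did not pass there (-0.06, adjusted p = 0.41).

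NDC80 and NUF2 thus fell while SPC24 did not; these differences between subunits were not tested. CENPA, the centromeric histone, fell (-0.29, adjusted p = 0.013). CENPE and CENPF did not pass.

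Of the spindle motors and microtubule proteins, HMMR, a spindle microtubule protein, was at 177, 162 and 149.9 CPM in replicate 1 and 135, 127 and 129 CPM in replicate 2 (-0.32, SE 0.06, adjusted p = 0.00034). TPX2 was at 453, 470.1 and 453 CPM against 404, 399 and 390.4 CPM (-0.21, SE 0.05, adjusted p = 0.0021). KIF20A, a motor of cytokinesis, was at 100.3, 103 and 97.3 CPM against 95.8, 81.3 and 81.2 CPM (-0.22, SE 0.07, adjusted p = 0.013).

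HMMR and TPX2 fell in each guide, and the KIF20A control pair was closer together than the knockout pairs. The KIF20A call ended without either sgRNA1 library (-0.16 and -0.17), without sgRNA2 replicate 1 (-0.20), in DESeq2 (adjusted p = 0.10) and in limma with no FPKM filter (adjusted p = 0.07). KIF11, KIF23 and NUSAP1 did not pass.

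In the chromosome structure group TOP2A was at 917, 898 and 894 CPM in replicate 1 and 769, 709.8 and 731 CPM in replicate 2 (-0.30, SE 0.04, adjusted p = 7.7e-05). MKI67, the Ki-67 protein that coats mitotic chromosomes and is used as a proliferation marker, moved the other way, from 228, 221 and 267 CPM to 388, 329 and 378 CPM (+0.61, SE 0.06, adjusted p = 1.1e-06). The 2 genes, both known as markers of dividing cells, moved in opposite directions in all 3 guides.

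Other cell cycle genes did not all follow the members of their own class. Of 48 other replication genes 16 rose and 2 fell (37.5% called, beside 45.0% of all genes). Among all genes 21.6% rose and 23.5% fell. CLSPN, the checkpoint adaptor claspin, rose most (+0.75, adjusted p = 4.5e-07), and CHTF18, a clamp loader subunit, also rose (+0.44, adjusted p = 0.0021). RFC4 (-0.30, adjusted p = 0.0022) and ORC3 (-0.28, adjusted p = 0.0022) were the 2 that fell.

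Of 89 other mitotic genes, however, 27 rose and 16 fell (48.3% called, beside 45.0% of all genes). Among the 29 members more fell than rose. GTSE1, a G2/M microtubule protein (+0.48, adjusted p = 0.00024) and CENPI, a centromere protein (+0.58, adjusted p = 0.0014), rose. CENPH, of the same inner kinetochore (-0.77, adjusted p = 4.7e-07), and PBK (-0.63, adjusted p = 3.4e-06) fell. PIMREG was called lower (-1.08, adjusted p = 0.00058) in whole-number counts, where it stands under an older symbol, and was not matched to the expected counts. KIFC1 was called too (+0.78, adjusted p = 0.039), but its ratio between tables was 0.0244 and the expected counts gave +0.0038 (adjusted p = 0.96). The difference between the 2 lists was not tested.

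Of 28 other control genes 13 rose and 5 fell (64.3% called, beside 45.0% of all genes). E2F5 (+0.63, adjusted p = 0.0041), E2F3 (+0.44, adjusted p = 4.7e-05) and BTG2, an antiproliferative gene (+0.44, adjusted p = 0.042), rose. CCND1, cyclin D1, fell (-0.995, SE 0.08, adjusted p = 2.6e-07), as did GADD45A, a growth arrest gene (-0.88, adjusted p = 2.5e-07), and MYC (-0.40, adjusted p = 0.00018).

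**Figure D5:**
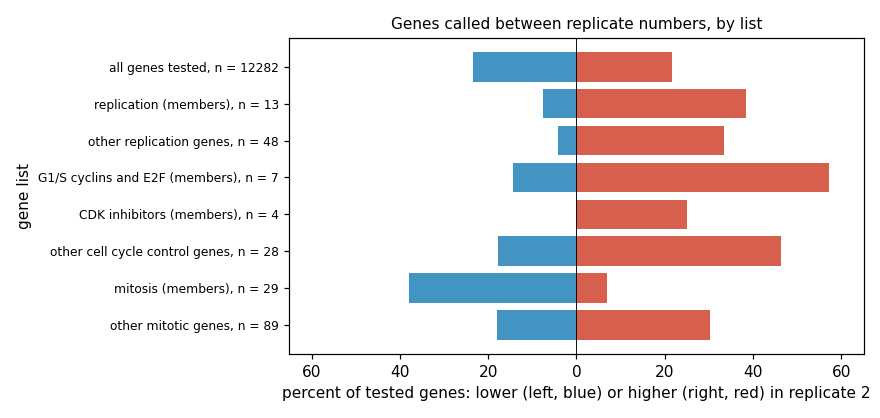
Percent of tested genes called higher (right, red) or lower (left, blue) in replicate 2 than in replicate 1, for all genes, for the members by group and for other genes of the same processes. Among called genes, both replication rows have more higher than lower, the mitotic members have fewer (2 higher, 11 lower of 29) and the other mitotic genes have more (27 higher, 16 lower of 89).

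Summed levels hid these moves. The 54 members together came to between 4249 and 4396 FPKM in all 6 libraries, with replicate 1 from 4307 to 4378 and replicate 2 from 4249 to 4396. The 29 mitotic genes came to 2139 to 2186 FPKM in replicate 1 and 2021 to 2087 in replicate 2, apart but by little. In CPM the ranges overlapped (5387 to 5521 and 5168 to 5454). Within each guide the CPM sum was lower in replicate 2 (control 5521 and 5454, sgRNA1 5387 and 5168, sgRNA2 5413 and 5186). The 13 replication genes overlapped, at 1883 to 1960 against 1951 to 2029 FPKM.

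Markers of cell identity moved with the replicate number as well. Of 18 erythroid markers 13 rose and 2 fell, where 21.6% and 23.5% of all genes did. Their summed level was 18070 to 23760 FPKM in replicate 1 and 35810 to 51910 in replicate 2. The effects ran from -0.43 to +2.47, with 14 positive and 4 negative. HBE1, embryonic globin, rose by +2.47 and TFRC, the transferrin receptor, by +0.74. In the knockout 6 of the 18 rose and none fell in whole-number counts, where 1.84% of all genes were called, and 11 rose and none fell in expected counts, where 3.03% were, with sums of 18070 and 35810 FPKM in the controls and 22380 to 51910 in the knockout libraries.

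Of 10 megakaryocyte markers 3 could be tested and 1 fell in replicate 2, ITGA2B (-2.85). In the expected counts 5 could be tested, of which 1 rose and 2 fell. The tables gave opposite sums for this list, 35.6 to 42.4 CPM in replicate 1 and 9.01 to 13.6 in replicate 2, against 66.3 to 86.7 and 97.6 to 110.4 FPKM. Most of the FPKM sum was GP1BB, which had no whole-number count. Of 14 markers of other cell types 8 could be tested and 4 fell, among them CD3D (-2.53) and LYZ (-2.34). The list summed to 303 to 358 FPKM in replicate 1 and 199 to 233 FPKM in replicate 2, and most of each sum was KRT8 and EPCAM. In the knockout COL1A1 was called higher (adjusted p = 0.027, on 0 to 1 counts in the controls and 8 to 14 in the knockout libraries) and PTPRC lower (-0.49, adjusted p = 0.014), and the expected counts added EPCAM as lower (-0.22, adjusted p = 0.041). The part of these differences in the changes of the cycle genes was not tested.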

How the data were processed

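RNA was taken from K562 cells with the RNeasy kit and made into libraries with the VAHTS Universal V6 kit, per the labels' protocols. The submitters' processing notes name hg38, Trim Galore, HISAT2 2.2.1, SAMtools 1.9, HTSeq 0.6.1, RSEM 1.3.2 and DESeq2 1.36.0 without roles; the strand setting is not given in the sources used here. The authors deposited whole-number counts per gene symbol, with 61.6 to 62.6% of each library in rows that name no gene, which were left out. Per the file headers, a second table holds expected counts, TPM and FPKM per gene (TPM was not used); expected counts were rounded for tests.

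Counts were tested with edgeR 4.0.16 (R 4.3.3): TMM scaling, filterByExpr by group, a quasi-likelihood fit over all 6 libraries, and adjustment over 12282 genes (12764 in expected counts). A knockout contrast takes both guides as 1 group. The replicate number was a block because the genes were to be compared within it; same-numbered libraries deviated together from their group means (r = 0.811, 0.757 and 0.824 over 9966 genes), although the labels do not say what it marks. Alternatives were no block, DESeq2 1.42.0 (size factors; Wald test), upper-quartile scaling, other filters, expected counts, limma 3.58.1 on log2(FPKM + 1) and log2(FPKM + 0.1), each library left out and, chosen after seeing the data, expected counts without the block and length and GC trends removed. Scripts were tested on simulated data.

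The members and lists were chosen with earlier results of these data known. Values in every library are given for members called in a knockout or guide contrast, the 2 largest changes in each role among those called between replicate numbers, the inhibitors, members whose tables disagree (over 2-fold from the median ratio) and the highest member of each role; other lists name the 3 largest changes each way, apart from any gene whose values are not reported here.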

Additional observations from a re-analysis of the deposited data

Results flagged for a closer look

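Of 29 named members tested for a sample far from the others of its group, 1 was singled out. MCM7 in the 4 knockout libraries was at 818 to 822 CPM in 3 of them and at 775 CPM in sgRNA2 replicate 2. The gap was 0.923 of the whole range, above the 95% limit of Dixon's test for 4 samples. Chance singles out about 1 in 20 groups.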

How the results depend on the processing

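Between replicate numbers, the count of members called stayed within 1.5 times the reported 25 under every alternative run (20 with DESeq2, 30 with expected counts; 20 to 26 with each library left out). In the knockout, the 1 member called (SPC25, and likewise 1 for either guide) became 0 without the replicate block, in DESeq2, in expected counts with or without the block, and in all 3 limma settings on FPKM. With each library left out the count was 0 to 1 for the knockout, 0 to 2 for sgRNA1 (MKI67 or CCND3 added without a control library, 0 without sgRNA1 replicate 1), 1 to 2 for sgRNA2 (CCND3 added without control replicate 2) and 0 to 1 between guides (MKI67). Fitting only the 4 libraries compared gave 1 between guides (MKI67). Among the named members, calls between replicate numbers ended in 5 of 16 alternatives for E2F1, GINS2 and KIF20A, and in 1 for CDK1. In that contrast CCND3 was called in 2 of 16 alternatives and SPC25 in 3. Over all genes, without the block 0 genes were called in place of 226, 109, 170 and 11 (knockout, sgRNA1, sgRNA2, between guides). Expected counts called 387, 178, 289 and 7, and 14 in place of 30 for the interaction. DESeq2 called 52 and 76 for the guides, 3 between guides, 8 for the interaction and 3390 in place of 5529 between replicate numbers. Fitting only the 4 libraries compared called 200, 179 and 93 for sgRNA1, sgRNA2 and between guides, and a minimum mean of 50 counts left 3 between guides. A library left out gave 141 to 236 for the knockout, 63 to 459 for sgRNA1, 161 to 634 for sgRNA2, 15 to 90 between guides and 35 to 96 for the interaction. Without a filter the knockout, sgRNA1, sgRNA2, between-guide and interaction counts were 245, 289, 421, 53 and 12, and with limma on log2(FPKM + 1) 194, 44, 94, 2 and 9 (15, 3, 1, 0 and 17 with no FPKM filter; 212, 40, 84, 3 and 0 on log2(FPKM + 0.1)). With an arm of 1 library, that library was assumed to vary like the others. The interaction without a control library could not be fitted. Low counts (5 to 16 per library for UBE2C, 3 to 28 for CDKN1A) limit what could be seen: CDKN1A was called between replicate numbers in 6 of 15 alternatives (no filter, expected counts, both limma settings with the FPKM filter, and without either sgRNA1 library, -2.10) and UBE2C in 5 of 14 (all 3 limma settings, and without either control library), with adjusted p down to 0.016 and 0.029.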
